A study of Mus musculus with 12 samples.

Results

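Open chromatin was compared between mouse cortical neurons exposed to alpha-synuclein pre-formed fibrils (PFF) and neurons that received only the vehicle, phosphate-buffered saline (PBS). ATAC-seq, in which a transposase cuts DNA where it is not wrapped in nucleosomes and the cut fragments are sequenced, had been run on 3 libraries of each group, which is 6 of the 12 libraries of the series. All 6 came from primary cortical neurons of wild-type C57BL/6 embryos at embryonic day 18, were treated for 7 days and carried the same batch label. The fibrils were made from human wild-type alpha-synuclein. The other 6 libraries received PFF together with the LRRK2 kinase inhibitor MLi-2 or with antisense oligonucleotides (ASO) against Rab5, and served here only to show whether a region was also called there.

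The peaks of the 6 lists were merged wherever they overlapped by at least 1 bp, which gave 226244 regions on chromosomes 1 to 19, X and Y. A region was counted as gained when it held a peak in 3 of 3 PFF lists and 0 of 3 PBS lists, and as lost in the opposite case. Gained regions numbered 2446, or 1.08% of all regions, and lost regions 890, or 0.393%. Peaks in all 6 lists were found in 85788 regions, and these were used to compare peak heights. A list holds only peaks that passed the authors' threshold, so a region absent from a list was not called there, which is not the same as closed.

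Alpha-synuclein is a presynaptic protein that forms fibrillar inclusions in Parkinson's disease and related disorders. Fibrils added to cultured neurons are taken up by endocytosis and travel through endosomes to lysosomes, where they can seed the aggregation of the cell's own protein. Lysosomal stress is known to send the transcription factors TFEB and TFE3 to the nucleus, where they bind E-box elements, while synaptic activity and stress signalling act on chromatin through Fos and Jun dimers, which bind AP-1 elements mostly in distal enhancers.

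List lengths and promoter shares differed between libraries in ways that the groups did not follow. PBS lists held 180989, 137417 and 152173 peaks in replicates 1 to 3, and PFF lists held 172377, 166426 and 151900. The longest and the shortest list were therefore both PBS. PBS replicate 1 also had the smallest share of peaks within 1 kb of a transcription start site, 21.9%, against 25.9% and 24.7% in the other PBS libraries and 22.8%, 23.4% and 24.7% with PFF. The median summit pileup, the number of fragments stacked over a peak's highest base, was 17 in every library. A relative depth was estimated from each list's background and shortest peak. It was 1.04, 1.03 and 1.10 with PBS and 1.03, 0.934 and 0.868 with PFF, with overlap (two-sided exact permutation p = 0.2). Of 12 library measures, the groups did not overlap in 2: the median peak width was 127 to 134 bp with PBS and 135 to 139 bp with PFF, and the share of peaks in exons was 3.23% to 3.30% with PBS and 3.40% to 3.47% with PFF. With 3 libraries against 3, the smallest two-sided exact permutation p is 0.1, which is what these 2 measures gave (0.6 after Benjamini-Hochberg adjustment over the 12 measures). With the same number of top peaks from each list the widths overlapped, at 170, 131 and 138 bp with PBS and 164, 164 and 151 bp with PFF, while the exon shares did not. The highest fold enrichment of a list, not among the 12 measures, was 37.8, 37.2 and 37.1 with PBS and 41.0, 42.4 and 44.3 with PFF. The part of depth and background in the height ranks was not tested.

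Promoters of neuronal genes were open in both groups. All 8 markers of excitatory neurons, all 6 pan-neuronal and all 6 inhibitory markers had a peak within 1 kb of a start site in all 6 libraries, and so did 5 of 6 astrocyte, 5 of 6 oligodendrocyte lineage and 6 of 6 progenitor markers. Within these lists 2 genes outside the astrocytes and progenitors had percentiles without overlap, named here after their values were seen: Bcl11b, a transcription factor of deep-layer neurons, at 67.4, 63.9 and 66.6 with PBS and 52.2, 52.1 and 54.5 with PFF, and Mbp, a myelin protein gene, at 73.6, 64.3 and 70.7 with PBS and 75.7, 76.6 and 77.3 with PFF. Of 6 microglial markers, none had a promoter peak in all 6 libraries, and Aif1, Cx3cr1 and Itgam had none in any. Peaks at Csf1r and Tmem119 were called in 3 PFF libraries and in PBS replicate 1 alone, at percentiles of 18.5 to 63.5 and 13.4 to 25.4 with PFF and of 17.9 and 25.1 in that PBS library. With an absent peak set to 0, the median over the 6 microglial markers was 0 to 8.93 in PBS and 0 to 11.3 in PFF libraries. The 10 genes of a wider microglial list held 39 regions, too few to read their 0 gained and 0 lost regions against the shares over all regions, and the part of such cells in the other results was not tested. In bulk libraries a change in the share of a cell type and a change within cells cannot be told apart.

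Sequences at the summits of a few regions are shown as examples, and their number of matches says nothing about the groups, whose shares are given with the motif results. Each is 201 bases centred on the highest summit, read 5′ to 3′ from the plus strand of GRCm38, in lower case. Capitals mark matches to 4 motifs, searched on both strands: AP-1 (TGANTCA), the E-box CACGTG, the cyclic AMP response element CRE (TGACGTCA) and the neurogenic bHLH element CAGATG, read as CATCTG on the other strand. The CRE letters hold no match to the AP-1 letters, so the searches do not overlap. Over all 226244 regions, AP-1 was matched in 11.2%, the E-box in 3.69%, CRE in 0.450% and the bHLH element in 22.6%. A match is a run of letters and not evidence of binding.

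The highest gained regions, chosen by mean height percentile, were an intergenic site near Tbx3, the start of the noncoding transcript Gm11732 and an intron of Fbxo42.
near Tbx3, chr5:119233063-119233263: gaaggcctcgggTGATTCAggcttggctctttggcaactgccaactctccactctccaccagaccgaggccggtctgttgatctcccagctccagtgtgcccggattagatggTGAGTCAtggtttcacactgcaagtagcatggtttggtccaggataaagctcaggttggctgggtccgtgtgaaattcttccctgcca
Gm11732 start, chr11:117426034-117426234: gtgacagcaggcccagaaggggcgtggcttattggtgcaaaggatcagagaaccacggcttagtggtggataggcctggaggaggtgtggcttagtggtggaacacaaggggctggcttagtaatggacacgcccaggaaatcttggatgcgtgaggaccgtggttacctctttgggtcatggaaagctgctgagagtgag
Fbxo42 intron, chr4:141188689-141188889: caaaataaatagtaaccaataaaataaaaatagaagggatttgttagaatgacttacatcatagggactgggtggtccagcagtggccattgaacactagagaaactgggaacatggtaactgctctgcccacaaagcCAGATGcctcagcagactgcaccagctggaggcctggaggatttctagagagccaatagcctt

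The first of these carried 2 AP-1 matches. To show the motifs in place, the next gained regions were chosen for holding a match: the highest with AP-1 or E-box away from start sites lay in introns of Galnt15 and P2rx7 and near Epas1, and a gained peak upstream of Tfeb also held an AP-1 match.
Galnt15 intron, chr14:32037907-32038107: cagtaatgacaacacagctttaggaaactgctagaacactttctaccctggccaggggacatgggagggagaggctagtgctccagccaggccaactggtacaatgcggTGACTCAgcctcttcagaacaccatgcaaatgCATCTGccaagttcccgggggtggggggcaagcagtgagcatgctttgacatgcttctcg
P2rx7 intron, chr5:122659659-122659859: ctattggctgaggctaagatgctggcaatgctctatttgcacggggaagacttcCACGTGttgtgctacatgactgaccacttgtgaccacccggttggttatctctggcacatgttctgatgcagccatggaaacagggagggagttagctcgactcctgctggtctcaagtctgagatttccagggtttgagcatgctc
near Epas1, chr17:86697989-86698189: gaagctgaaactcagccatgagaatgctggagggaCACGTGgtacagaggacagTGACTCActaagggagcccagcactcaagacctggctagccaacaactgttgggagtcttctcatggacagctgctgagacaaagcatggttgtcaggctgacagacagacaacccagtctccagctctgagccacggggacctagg
Tfeb promoter, chr17:47762605-47762805: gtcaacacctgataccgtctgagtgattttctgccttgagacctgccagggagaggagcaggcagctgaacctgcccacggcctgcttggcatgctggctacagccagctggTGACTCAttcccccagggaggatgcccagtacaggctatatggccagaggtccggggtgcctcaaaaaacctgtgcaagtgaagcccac

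The highest lost regions, chosen by height alone, were the Qtrt2 promoter, a site near Chd6 and an intron of Grin2b. No lost region was chosen for a match, although 85 of the 890 held AP-1 and 15 held the E-box.
Qtrt2 promoter, chr16:43869633-43869833: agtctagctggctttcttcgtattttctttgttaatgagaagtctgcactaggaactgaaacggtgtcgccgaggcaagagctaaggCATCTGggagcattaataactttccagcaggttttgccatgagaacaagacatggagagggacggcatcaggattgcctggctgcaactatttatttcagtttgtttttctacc
near Chd6, chr2:161265290-161265490: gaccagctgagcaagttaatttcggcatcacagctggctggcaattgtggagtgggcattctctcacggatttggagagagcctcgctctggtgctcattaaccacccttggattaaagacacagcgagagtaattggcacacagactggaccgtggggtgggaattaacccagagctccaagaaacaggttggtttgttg
Grin2b intron, chr6:135734429-135734629: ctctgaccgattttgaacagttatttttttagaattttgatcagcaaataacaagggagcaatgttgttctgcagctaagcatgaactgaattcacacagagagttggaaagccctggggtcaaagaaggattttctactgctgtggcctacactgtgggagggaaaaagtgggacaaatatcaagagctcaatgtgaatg

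Gained and lost regions sat at one end of a continuum. Another 7348 regions were called in 2 PFF and 0 PBS libraries and 5868 in 3 PFF and 1 PBS library, against 4766 in 2 PBS and 0 PFF libraries and 2430 in 3 PBS and 1 PFF library. In the 5868 regions with a single PBS peak, that peak was in PBS replicate 1 in 62.8%, in replicate 3 in 23.0% and in replicate 2 in 14.2%. The single PFF peak of the opposite class was in replicate 1 in 52.3%, in replicate 2 in 31.4% and in replicate 3 in 16.3%. The single peaks were thus most often in the longest list of the group. With the same 137299 top peaks taken from every list, gained regions numbered 1908 and lost regions 1135. Without PBS replicate 2, the shortest list, the order turned, with 3296 gained and 3621 lost. At equal list lengths and without that library, 3157 were gained and 2963 lost.

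**Figure D1:**
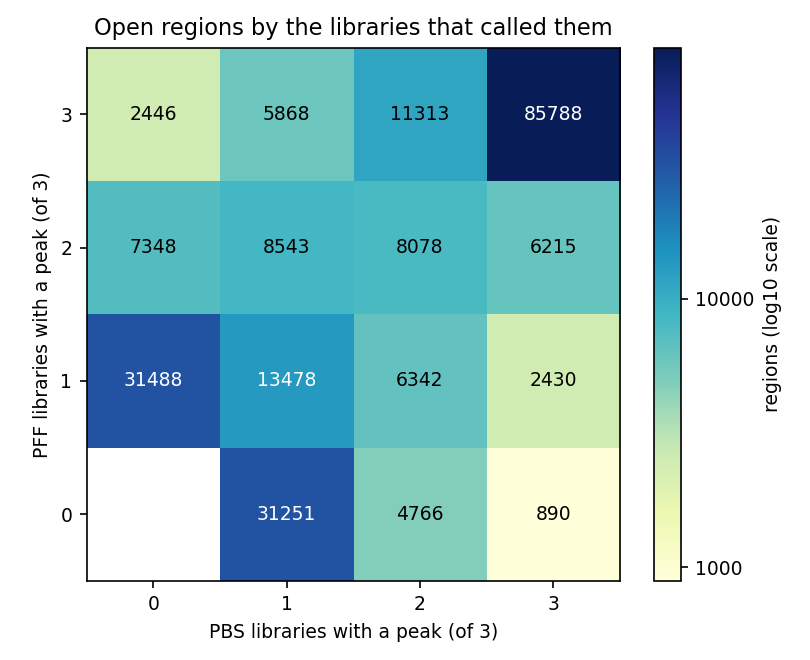
Number of regions by how many PBS lists (horizontal axis) and PFF lists (vertical axis) held a peak, with colour on a log10 scale. Regions in all 6 lists (85788) outnumber every other class, and the gained corner (2446) holds more regions than the lost corner (890).

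The gained and lost peaks were about as high as other peaks that some libraries lacked. Gained regions had a median within-list height percentile of 31.5 and a median summit pileup of 13 fragments, lost regions 32.9 and 12, and other regions in 1 to 5 lists 27.2 and 13. Regions in all 6 lists were higher, at 69.9 and 23. The highest mean percentile was 80.5 among gained and 73.3 among lost regions.

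The intergenic region near Tbx3, a T-box transcription factor gene whose start is 438 kb away, was the highest gained region (chr5:119233007-119233311). Its percentiles with PFF were 84.3, 84.8 and 72.2, from pileups of 22, 22 and 17 fragments. The peak 44 bp upstream of Gm11732 (chr11:117425952-117426213) reached percentiles of 80.2, 75.7 and 83.5, and it was also called in all 3 libraries of each of the other PFF groups. In an intron of Fbxo42, which encodes a substrate receptor of an SCF ubiquitin ligase, the percentiles were 77.8, 82.0 and 77.9 (chr4:141188546-141188897). All 3 PFF libraries placed these regions in the upper part of their lists, while no PBS library called them.

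Other regions among the 8 highest were near Depdc1a and in introns of Seh1l, a nuclear pore component that also belongs to the GATOR2 complex upstream of mTORC1, of the antisense RNA gene 4930592A05Rik and of Epb41l2, a membrane-skeleton protein. The Rbm14 region (chr19:4802941-4803244) lay in coding sequence of this RNA-binding coactivator gene, with percentiles of 64.2, 75.4 and 69.9. The lowest PFF value of these 8 regions was 61.3. Of the gained regions shown for their E-box, the one in P2rx7, an ATP-gated channel gene, was at 55.6, 76.7 and 68.2, and the one near Epas1, which encodes a hypoxia-inducible factor, at 40.4, 62.1 and 75.7. The AP-1 region in Galnt15 was at 44.8, 75.2 and 70.5.

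Among lost regions, a peak 338 bp upstream of Qtrt2, a subunit of the enzyme that puts queuosine into transfer RNA, was the highest (chr16:43869628-43869854). Its percentiles were 81.3, 49.3 and 89.4 with PBS, from 21, 13 and 24 fragments, so PBS replicate 2 stood well below the others. A region in an intron of Grin2b, which encodes the GluN2B subunit of NMDA receptors, was at 73.7, 70.2 and 70.5 with PBS (chr6:135734476-135734646). Gabrg3, the gene of a GABA-A receptor gamma subunit, held a lost intronic region at 72.9, 71.0 and 62.8 (chr7:57214156-57214364). Introns of Csgalnact1, which starts chondroitin sulfate chains, and of Mkln1 held 2 others, and those near Chd6 and Acvr1c lay between genes. The Grin2b, Gabrg3, Mkln1 and Chd6 regions were called in all 3 libraries with PFF and MLi-2 and in all 3 with PFF and Rab5 ASO.

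**Figure D2:**
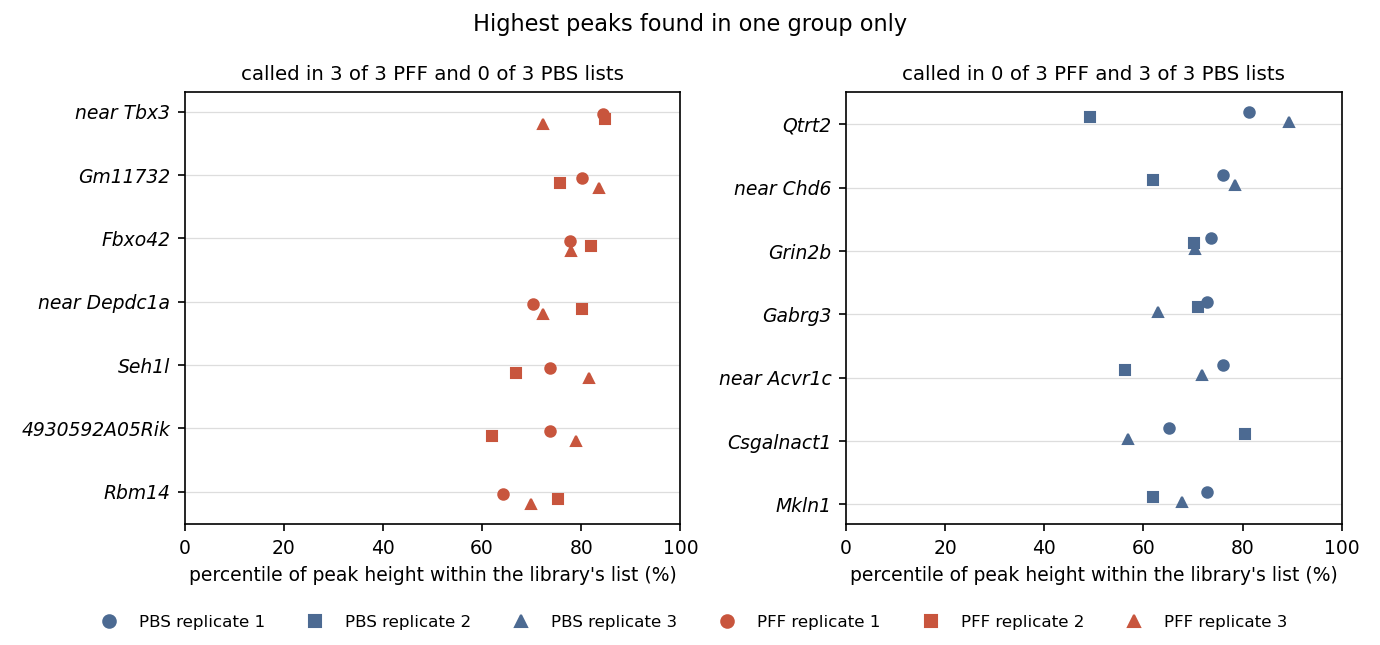
Within-list percentile of peak height (horizontal axis, %) of the 7 highest gained regions (left) and the 7 highest lost regions (right), 1 point per library that called the region, with shape giving the replicate. Gained points run from 62.1 to 84.8, and the Qtrt2 point of PBS replicate 2 (49.3) lies below all others.

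Across the whole classes, 4.66% of gained and 24.2% of lost regions were called in all 3 libraries with MLi-2, and 18.6% and 21.5% in all 3 with Rab5 ASO. In none of the 3 MLi-2 libraries were 41.9% of gained and 21.1% of lost regions called, and in none of the 3 ASO libraries 42.0% and 34.3%. Other regions in 1 to 5 lists were called in all 3 MLi-2 libraries in 10.2% and in all 3 ASO libraries in 18.6% of cases, and in none of them in 52.5% and 47.4%. These libraries share the fibril treatment with the PFF group, and their own list lengths enter these shares.

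Promoters made up a smaller share of gained and lost regions than of regions in all 6 lists, as they did of other regions in 1 to 5 lists. Within 1 kb of any annotated start site lay 13.0% of gained regions (95% Wilson interval 11.7% to 14.4%), 9.66% of lost regions (7.89% to 11.8%), 13.5% of other regions in 1 to 5 lists, 26.3% of the regions in all 6 lists and 18.3% of all regions. Introns held 47.5% of gained and 46.1% of lost regions, and 34.6% and 40.9% lay between genes. The median distance to a protein-coding start was 19.7 kb for gained and 33.2 kb for lost regions, against 15.4 kb for regions in all 6 lists. Median GC content over the 201 bases was 50.2%, 46.8% and 51.2% in the same order.

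Of 34655 regions within 1 kb of a protein-coding start, 239 were gained (0.690%) and 58 were lost (0.167%). Arhgap20, which encodes a GTPase-activating protein, held the highest of the gained promoter regions 619 bp into the gene (chr9:51832150-51832475), with percentiles of 55.6, 82.6 and 51.5. Ip6k3, an inositol hexakisphosphate kinase gene, had a gained peak on its start site at 45.8, 64.3 and 60.8, and Ano2, a calcium-activated chloride channel gene, had one 15 bp upstream at 43.7, 60.0 and 47.6. The others by the same ranking were Olfr803, Shisa5, Mbnl1 (a splicing regulator), Apol7a and Pcdhgb1 (a clustered protocadherin). PFF replicate 2 gave the highest percentile at 6 of these 8 promoters.

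Lost promoter regions after Qtrt2 were those of Dcstamp, Ccdc54, Car13 (a carbonic anhydrase), Inmt, Casd1 (a sialic acid acetyltransferase), Fto (an RNA demethylase) and Phlpp1, a phosphatase that acts on Akt. The Fto peak, 359 bp into the gene, was at 48.0, 40.5 and 49.8 with PBS (chr8:91390894-91390977). The Phlpp1 peak, at 39.7, 49.3 and 41.0, was the only one of the 8 that no library with MLi-2 or Rab5 ASO called.

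Protein-coding genes that held any region in the gene or within 1 kb of its start numbered 16299. Of their 128338 regions, 1394 were gained (1.09%) and 450 were lost (0.351%), in 1200 and 415 genes, with 103 genes in both sets. The gene model Gm20388, which spans 4435 kb of chromosome 8 and overlaps many other genes, had 11 gained among 357 regions. Epb41l2 had 4 gained among 24 regions, Itpr1, the inositol trisphosphate receptor of the endoplasmic reticulum, 4 among 50, Arhgap26 4 among 115 and Kirrel3, a synaptic adhesion protein, 4 among 124. Most lost regions were in Ctnna3 (3 of 64), Prkg1, a cyclic GMP-dependent kinase (3 of 86), and Tenm2, a teneurin adhesion protein (3 of 156). In all, 32 genes had 2 or more lost regions, and among those tied at 2 the largest share of a gene's regions was lost in Mtx3 (2 of 6) and Abcc6 (2 of 13).

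Away from promoters, E-box, AP-1 and neurogenic bHLH matches were in a larger share of gained than of lost regions. With promoters included, this was not so for every motif searched. Among regions more than 1 kb from any start site, an E-box CACGTG within 100 bp of the summit was present in 111 of 2129 gained (5.21%, 95% Wilson interval 4.35% to 6.24%) and 14 of 804 lost regions (1.74%, 1.04% to 2.90%), against 3.42% of regions in all 6 lists and 3.24% of all such regions. AP-1 matches were present in 343 gained regions (16.1%, 14.6% to 17.7%) and 78 lost regions (9.70%, 7.84% to 11.9%), against 11.7% and 12.5%. The neurogenic bHLH element was in 25.2% of gained and 19.03% of lost regions, against 25.6% and 24.8%, so here the lost regions were the ones that differed from the rest. Shares of the other motifs are given over all gained and lost regions, promoters included. Away from start sites MEF2 was in 2.35% of gained and 1.37% of lost regions, and the rest were not computed there. Larger in lost regions were those of forkhead (TGTTTAC, 2.90% of gained and 4.27% of lost), STAT (TTCNNNGAA, 5.60% and 7.53%), CARE (TGATGNAA, 3.19% and 3.60%) and SMAD (GTCTAGAC, 0.204% and 0.337%). Larger in gained regions were those of ETS (CCGGAAG, 1.19% and 0.787%), MEF2 (TATTTATA, 2.17% and 1.35%), CRE (0.409% and 0.225%) and the GC box (GGGCGG, 6.705% and 6.40%). For MEF2 this order rested on the setting, with 2.05% of gained and 2.14% of lost regions when 2 of 3 libraries were enough and 2.09% and 2.49% without PBS replicate 2. The other motifs of this group and those larger in lost regions were not recomputed under other settings. The intervals cover counting error only, and no test was made on these shares. Gained regions were also richer in GC than lost ones, and its part in the shares was not tested.

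The order of gained over lost held for E-box, AP-1 and the neurogenic bHLH element, though not for MEF2, under each of the 15 alternative settings tried. With promoters included, the E-box was in 4.29% to 5.56% of gained and 1.55% to 2.56% of lost regions, and AP-1 in 13.5% to 16.4% and 8.01% to 12.01%. Without PBS replicate 1 the E-box shares were 4.45% and 2.25%, and without PBS replicate 2 they were 5.10% and 2.10%. Gained regions with AP-1 were called in all 3 Rab5 ASO libraries in 6.72% of cases and gained regions without it in 20.7%, while the MLi-2 shares were 5.65% and 4.48%. Among lost regions the shares with and without AP-1 were 15.3% and 22.1% in all 3 ASO libraries and 12.9% and 25.3% in all 3 MLi-2 libraries, over 85 and 805 regions. The ASO share was thus lower with AP-1 in both classes, and no test was made on these shares.

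**Figure D3:**
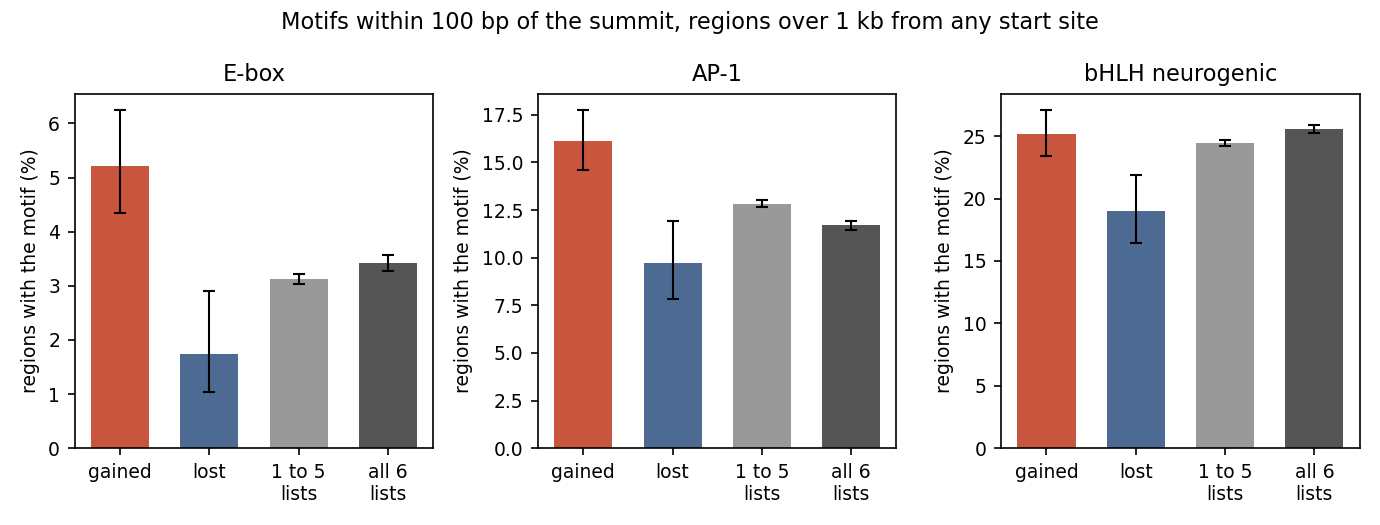
Share of regions (vertical axis, %) more than 1 kb from any start site with an E-box, AP-1 or neurogenic bHLH match within 100 bp of the summit, for gained regions, lost regions, other regions in 1 to 5 lists and regions in all 6 lists. Error bars are 95% Wilson intervals, and the gained bar exceeds the lost bar for each motif (5.21% against 1.74% for the E-box).

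Peak heights were then compared in the 85788 regions called everywhere, none of which was chosen for its difference. Fold enrichment is relative to each library's own background, so heights of these regions were ranked within each library and turned into normal scores. A difference of 1 is 1 standard deviation of the scores of these regions in a library. With limma and Benjamini-Hochberg adjustment 0 regions passed an adjusted p of 0.05 (0%), the smallest adjusted p being 0.239. Unadjusted p-values under 0.05 were found for 8315 regions (9.69%). The 3 PFF scores all lay above the 3 PBS scores in 6141 regions (7.16%) and all below in 6744 (7.86%). On the scale of log2 summit pileup the split was 8249 higher and 4656 lower, also with 0 adjusted calls.

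At promoters, lower ranks with PFF were more common than higher ones, a direction that turned on the scale of log2 summit pileup. Of 19786 protein-coding promoter regions, 776 were higher without overlap (3.92%) and 2122 were lower (10.7%), with a median difference of -0.08 in normal scores. Mean promoter scores were 0.303, 0.415 and 0.391 in the PBS libraries and 0.300, 0.288 and 0.328 in the PFF libraries, so PBS replicate 1 lay among the PFF libraries and the groups overlapped (exact permutation p = 0.2, two-sided). Without PBS replicate 1, 1357 promoter regions were higher and 5146 lower. On the log2 pileup scale 1620 were higher and 629 lower, and when ranked by p-value 1102 were higher and 1413 lower. Regions of at least 1 kb in width numbered 1308, of which 6 were higher and 160 lower in rank of fold enrichment.

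Away from start sites, regions with certain motifs ranked higher with PFF than other regions did. Scores of the 2160 E-box regions, relative to regions without the motif, were -0.057, 0.014 and 0.0032 in the PBS libraries and 0.048, 0.068 and 0.062 in the PFF libraries, and the groups did not overlap. Of these, 10.7% were higher and 5.05% were lower without overlap, against 8.18% and 6.97% of all 63202 regions away from start sites. The 196 CRE regions scored 0.067, 0.12 and 0.10 with PBS and 0.17, 0.25 and 0.22 with PFF, with 30 higher and 13 lower. For the 7395 AP-1 regions the scores were -0.021, -0.086 and -0.035 with PBS and 0.043, -0.025 and 0.013 with PFF, with PFF replicate 2 just below PBS replicate 1, and 716 were higher and 387 lower. Higher regions outnumbered lower ones also among all regions away from start sites, making up 50.97% to 62.02% of those without overlap in the main comparison, by p-value rank, on the log2 fold and log2 pileup scales and without each library in turn. In the same settings they made up 59.2% to 72.02% for AP-1, 61.15% to 82.8% for the E-box and 61.3% to 92.2% for CRE regions. Forkhead regions differed in the other direction, at 0.038, 0.014 and 0.024 with PBS and -0.0039, -0.015 and -0.0073 with PFF. No p below 0.1 is possible for such a comparison of 3 libraries with 3, and these scores are given as a description.

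**Figure D4:**
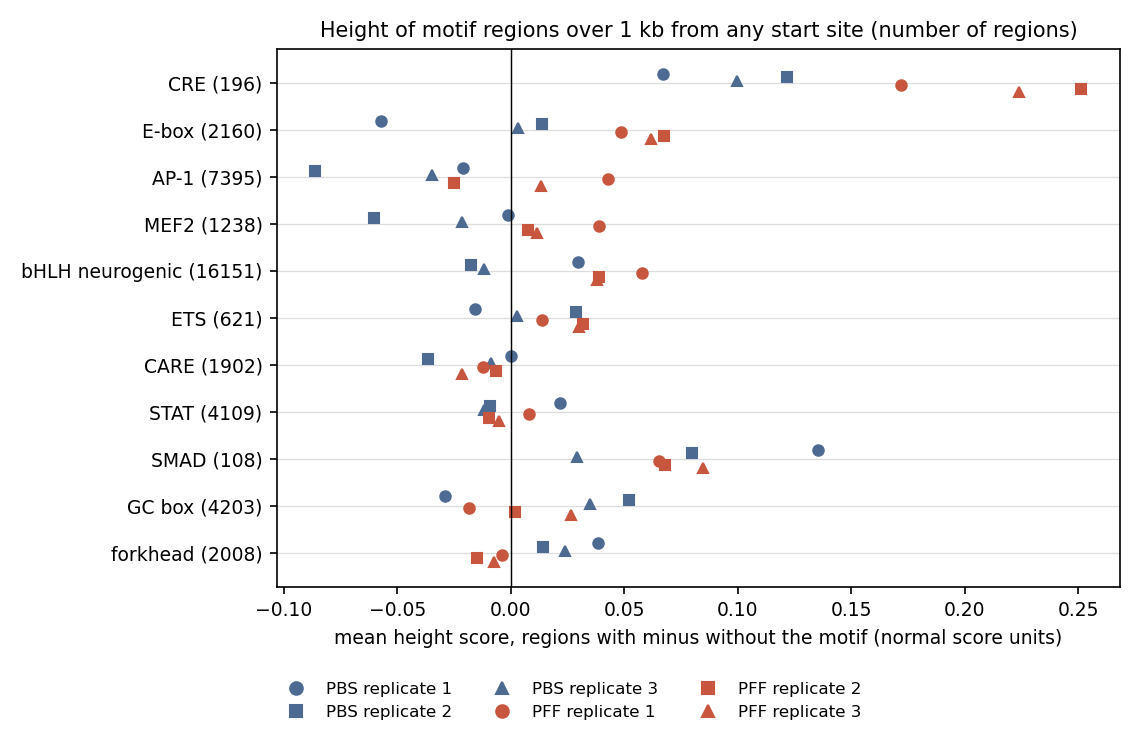
Mean height score of regions with a motif minus that of regions without it (horizontal axis, normal score units), in each library, for 11 motifs in regions more than 1 kb from any start site, with the number of regions in brackets. PBS and PFF points separate for CRE, E-box, MEF2, neurogenic bHLH and forkhead regions and overlap for AP-1, where the lowest PFF point is -0.025.

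The largest positive difference in height rank was at the promoter of Crispld2, which encodes a secreted cysteine-rich protein. Its peak 59 bp upstream of the start (chr8:120012986-120013293) had percentiles of 21.3, 12.7 and 33.2 with PBS and 72.3, 93.6 and 74.6 with PFF, from 11, 11 and 14 fragments against 24, 36 and 23. Every PFF library stood far above every PBS library. The difference was 1.94 in normal scores (SE 0.33, n = 3 per group, limma adjusted p = 0.239). The window around its summit held none of the 4 motifs.
Crispld2 promoter, chr8:120013049-120013249: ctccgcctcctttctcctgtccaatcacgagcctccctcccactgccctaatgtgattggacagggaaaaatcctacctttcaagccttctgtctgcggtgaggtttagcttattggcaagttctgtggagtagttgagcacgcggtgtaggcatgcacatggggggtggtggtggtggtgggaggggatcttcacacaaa

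Other promoters ranked higher with PFF without overlap, none of them with an adjusted p under 0.05. Stx3, a syntaxin of vesicle fusion, was at 34.3, 35.8 and 26.3 with PBS and at 76.0, 84.3 and 65.9 with PFF. Farp1, a guanine nucleotide exchange factor found at synapses, was at 1.37, 4.11 and 3.15 with PBS and at 43.5, 37.2 and 38.2 with PFF. Tead2, a transcription factor of the Hippo pathway, was at 23.0, 36.3 and 34.4 with PBS and at 67.8, 75.8 and 70.4 with PFF. Sema5a and Plxnb3, a semaphorin and a semaphorin receptor, were in the same set, with differences of 1.19 (SE 0.32) and 1.21 (SE 0.39), and so were Olfr648 (1.44, SE 0.26) and Ermap (1.18, SE 0.24). At Plxnb3 the PBS values were widely spread, from 7.71 to 62.8.

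The largest negative promoter difference was at Hc, the gene of complement component C5, 483 bp upstream of the start (chr2:34993717-34994055). Percentiles were 66.3, 58.2 and 52.9 with PBS and 11.4, 9.27 and 8.87 with PFF, from 26, 21 and 21 fragments against 13 in each PFF library. This is a difference of -1.55 (SE 0.20, n = 3 per group, limma adjusted p = 0.239). Cadps2, which primes dense-core vesicles for release, was at 64.0, 75.3 and 64.8 with PBS and at 23.5, 35.6 and 25.7 with PFF. Ccdc114, Trps1 (a GATA-type repressor), Ddx54 (an RNA helicase), Gpr146 and Clip4 were in the same set, with differences from -1.44 to -1.25. At Trps1 the highest PFF value, 23.8, was above the lowest PBS percentile, 22.7, although the scores among regions in all 6 lists did not overlap.

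**Figure D5:**
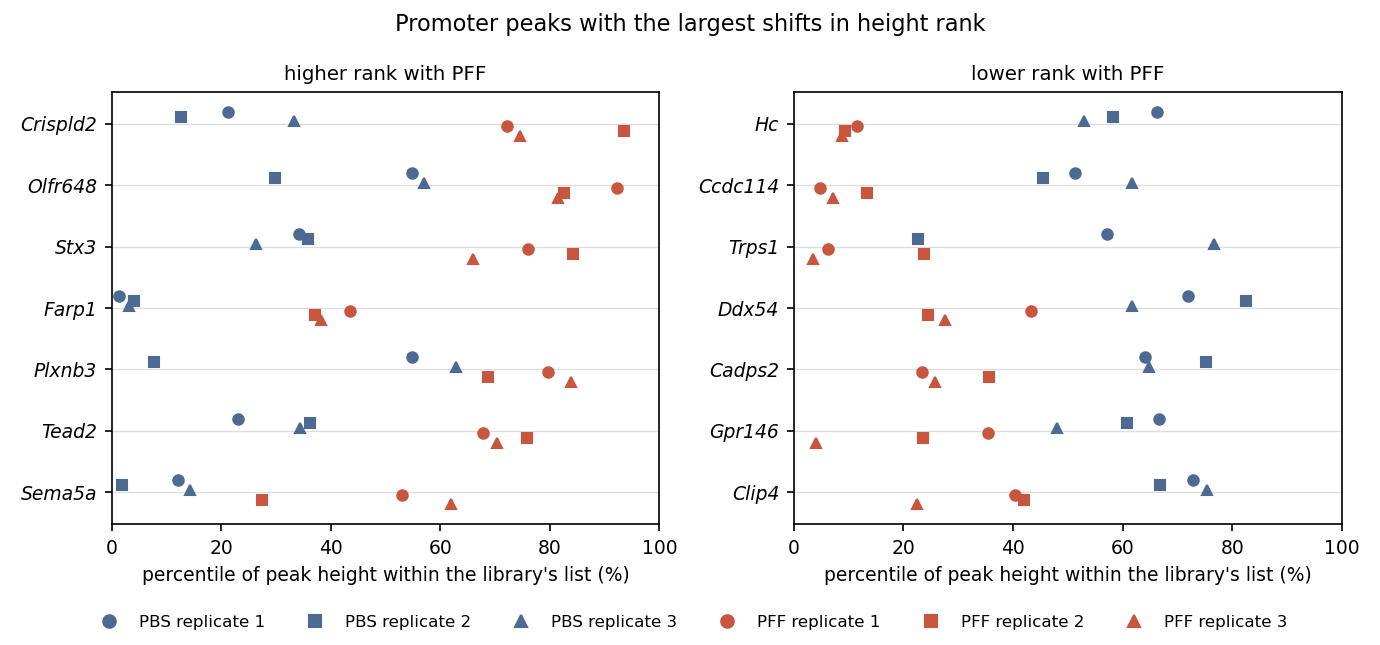
Within-list percentile of peak height (horizontal axis, %) in each library at the 7 protein-coding promoter regions with the largest positive (left) and the 7 with the largest negative difference (right) in height rank, 1 point per library. At Hc the PFF points lie between 8.87 and 11.4 and the PBS points between 52.9 and 66.3.

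Away from promoters, the largest positive differences were in introns of Evi5, Ksr1 (a scaffold of the MAP kinase pathway) and the noncoding genes Gm34184 and Gm42567, and between genes near Slc38a11, Hlx and Egln3. The Ksr1 region was at 13.2, 10.0 and 5.33 with PBS and at 68.6, 75.1 and 59.8 with PFF, a difference of 1.76 (SE 0.22). The largest negative ones were in introns of Rora and Slc4a4, in the antisense gene 4930542D17Rik and between genes near Sox6, Cacna2d3, Pabpc6 and Bst1. Near Cacna2d3 the percentiles were 96.9, 77.7 and 89.4 with PBS against 61.3, 32.2 and 51.5 with PFF. The difference near Sox6 (-1.85, SE 0.33) rested on PFF replicates 2 and 3, at 21.1 and 22.6, more than on replicate 1, at 66.0.

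Genes named by the study for fibril treatment were looked up among the same regions. The study named most of them from RNA-seq of PFF and PBS cultures. It showed P2rx4, Plekhf1, Ets1, Tgfb2, Camk2b and Sema6b with ATAC-seq as well. As the choice rests in part on these samples, the counts are not independent evidence. Of 27 promoter regions of these genes called in all 6 lists, 5 were higher without overlap and 1 was lower, beside 3.92% and 10.7% of all protein-coding promoter regions, and their median difference was -0.06 against -0.08. That order and the sign turned with the setting, the median being -0.15 against -0.12 without PBS replicate 1 and 0.05 against -0.02 by p-value rank. Manba, the lysosomal beta-mannosidase, was at 89.7, 92.9 and 95.2 with PBS and at 96.7, 98.9 and 96.5 with PFF (0.56, SE 0.24, limma adjusted p = 0.503). Nbn, a DNA double-strand break sensor, was at 97.6, 96.9 and 96.4 against 98.7, 98.5 and 98.4. Cxcl5, a chemokine, was at 62.8, 54.5 and 67.7 against 84.3, 71.9 and 68.2. Hspg2, which encodes perlecan, had 1 of its 2 promoter regions higher, at 15.1, 10.8 and 11.3 against 43.2, 17.0 and 16.9. Plekhf1, an endosomal and lysosomal adaptor, had a start-site region that was higher (0.42, SE 0.20) and a second region 781 bp away that was lower (-0.59, SE 0.23).

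Camk2b, a calcium/calmodulin-dependent kinase of synapses, held 2 gained intronic regions, both at percentiles under 13 in all PFF libraries. Another of its intronic regions (chr11:5996099-5996251) was lower without overlap, at 36.0, 34.75 and 23.0 with PBS and 9.74, 12.6 and 10.9 with PFF (-0.70, SE 0.21). Ets1, a transcription factor, held 1 lost intronic region at 34.9, 32.9 and 21.2 with PBS, while its start-site peak was at 95.4, 96.0 and 97.2 with PBS and at 96.3, 94.5 and 94.99 with PFF. Another Ets1 intronic region (chr9:32735686-32736085) was higher without overlap, at 69.2, 40.5 and 56.9 against 73.7, 83.3 and 79.4 (0.79, SE 0.24), and 2 Ets1 intronic regions were lower. In Tgfb2, a TGF-beta ligand gene, 1 intronic region was higher (0.74, SE 0.25) and 1 was lower (-0.60, SE 0.23). The promoters of Cdkn1a, a cell cycle inhibitor of senescence, and Chek2 had no separation of the groups, with differences of -0.15 (SE 0.22) and -0.14 (SE 0.20). A Chek2 intronic region (chr5:110869245-110869714) was lower in score without overlap (-0.33, SE 0.21), although its percentiles overlapped. The start-site region of P2rx4, an ATP-gated channel, differed by -0.07 (SE 0.22) and that of Sema6b, a semaphorin, by -0.18 (SE 0.22), both with overlap. For P2rx4, Plekhf1, Ets1, Tgfb2, Camk2b and Sema6b the study reported increased accessibility, from tests of read counts. Within-list ranks are an unlike measure and do not test that result.

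Pathway and cell type lists covering 619 genes had shares of changed regions near those of all protein-coding genes. Of their 9640 regions, 91 were gained (0.944%) and 31 were lost (0.322%), beside 1.09% and 0.351%. Of 249 regions of lysosomal enzyme and membrane genes, 3 were gained and 1 was lost, and of their 67 promoter regions in all 6 lists 2 were higher and 8 lower, with a median difference of -0.03. Genes of autophagy and the TFEB family had 5 gained and 1 lost of 236 regions, with 1 promoter region higher and 8 lower of 44 (median -0.11). Vacuolar proton pump genes had 2 gained and 1 lost of 81 regions, and 0 higher and 3 lower of 26 promoter regions. Early endosome and LRRK2 pathway genes had 0 gained and 0 lost of 236 regions, with 2 higher and 6 lower of 41 promoter regions (median -0.02). Over all protein-coding promoters 3.92% were higher and 10.7% lower, with a median of -0.08. The medians moved with the setting: the lysosomal one was -0.09 without PFF replicate 1 and 0.01 by p-value rank, and the endosomal one -0.08 without PFF replicate 3 or PBS replicate 1 and 0.02 by p-value rank. Over the 8 alternatives the median of autophagy and TFEB family genes ran from -0.16 to -0.04. The median over all protein-coding promoters itself ranged from -0.12 to -0.02 over the 8 alternatives.

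The background for the remaining lists is the same, 1.09% gained and 0.351% lost for regions and 3.92% higher and 10.7% lower, with a median of -0.08, for promoters. Senescence and cell cycle genes had 2 gained and 2 lost of 281 regions and 2 higher and 7 lower of 76 promoter regions. The secreted and inflammatory factors of senescent cells had 1 gained, in Tnfrsf1a, and 1 lost, in Vegfa, of 143. TGF-beta pathway genes had 5 gained, among them intronic regions of Tgfbr1, Tgfbr2 and Acvr1, and 1 lost, in Bmpr1b, of 335. Kinase and cyclic AMP signalling genes had 9 gained and 1 lost of 935 regions, with 2 gained in each of Adcy5, an adenylyl cyclase, and Pde4d, a phosphodiesterase. Stress response genes had 0 and 0 of 123, and immediate-early genes 2 and 0 of 124, with 0 higher and 6 lower of 38 promoter regions (median -0.19). Over the 8 alternatives this median ran from -0.25, without PBS replicate 1, to -0.06. Without PBS replicate 1 the median over all protein-coding promoters was -0.12.

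Among lists of other cell types, astrocyte genes had 1 gained and 0 lost of 106 regions, with 1 higher and 2 lower of 18 promoter regions and a median of -0.23, which was -0.22 to -0.13 under the 8 alternatives, the last without PBS replicate 3. As for all lists, the promoter background is 3.92% higher and 10.7% lower with a median of -0.08. Progenitor genes had 1 gained and 0 lost of 53, with 1 higher and 3 lower of 18 promoter regions. Their median was -0.18, -0.32 without PBS replicate 1 and -0.11 without PBS replicate 2. Without PBS replicate 1 the median over all protein-coding promoters was -0.12. At the promoter of Hes5, a Notch target, percentiles were 36.3, 43.2 and 36.7 with PBS and 15.3, 25.3 and 20.3 with PFF. Gfap, an astrocyte filament gene, was at 44.8, 45.9 and 61.5 against 26.0, 47.4 and 20.1, where the groups overlapped. Aqp4, a water channel gene, was at 56.55, 21.6 and 47.2 with PBS and at 11.2 and 17.5 in PFF replicates 1 and 3, with no peak in replicate 2. S100b, a calcium-binding protein gene of astrocytes, went the other way, at 52.8, 69.35 and 66.4 against 68.2, 79.5 and 73.5, also with overlap. These genes were chosen after their values were seen, and the groups overlapped at the other astrocyte and progenitor markers looked up, among them Aldh1l1, Slc1a3, Sox2, Pax6 and Vim. Oligodendrocyte genes had 1 gained of 80 regions and 1 higher and 2 lower of 8 promoter regions, and endothelial and mural genes had 2 of 78, both in Pecam1. The part of these cells in the other results was not tested.

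Genes with both gained and lost regions, 103 in all, included some of the synaptic lists and, outside them, Slit3 and Kcnd3. Presynaptic genes had 9 gained (0.984%) and 5 lost (0.546%) of 915 regions, with Nrxn3, Erc2 and Syn3 holding at least 1 of each. Glutamate receptor and postsynaptic genes had 12 gained (0.772%) and 8 lost (0.5145%) of 1555, with Dlg2, Dlgap1 and Dlgap2 holding at least 1 of each. GABA receptor genes had 4 gained and 1 lost of 325, 1 of each in Gabrg3. Voltage-gated channel genes had 14 gained, in Cacnb2, Kcnq3, Kcnh7 and others, and 3 lost of 1441. Guidance genes had 12 gained and 4 lost of 1307. Of their 83 promoter regions 1 was higher and 12 were lower (median -0.18), beside 3.92%, 10.7% and -0.08 over all protein-coding promoters. Over the 8 alternatives the guidance median ran from -0.28, without PBS replicate 1, to -0.08, and was -0.10 without PBS replicate 2. Without PBS replicate 1 the median over all protein-coding promoters was -0.12. Genes of cortical neuron identity had 7 gained and 2 lost of 1020, among them a gained promoter region of Foxp1. Away from promoters, 193 of 2519 tested regions of all the listed genes were higher (7.66%) and 187 were lower (7.42%), beside 7.92% and 7.15% over such regions of all protein-coding genes. Single lists lay on either side, with 11 higher and 2 lower of 87 for GABA receptors, 5 and 9 of 56 for early endosomes and 28 and 35 of 390 for guidance.

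Promoters of the listed genes were gained about as often as others. Of their 1849 promoter regions 12 were gained (0.649%), beside 0.690% of all protein-coding promoter regions. The 12 gained included those at Akt1, Aldh1l1, Ccnd2, Cux2, Foxp1, Gabarapl2, Ier2, Lamp1, Tfeb, Tgif1 and Unc13b, and the only lost one (0.0541%, beside 0.167% of all protein-coding promoter regions) was at Atg14, a subunit of the autophagy lipid kinase. These names were chosen after their values were seen. In 9 of the 13 a region called in all 6 lists lay within 1 kb. Upstream of Tfeb (chr17:47762659-47762863) the gained peak had 17, 22 and 15 fragments and percentiles of 7.02, 38.5 and 6.06, 83 bp from a peak called in every library. At Gabarapl2, an ATG8 family protein gene, it had 24, 28 and 20 fragments and percentiles of 45.7, 58.5 and 20.5. Lamp1, a lysosomal membrane protein gene, had 17, 19 and 18 fragments, 26 bp from a constant peak, and percentiles of 3.62, 8.42 and 13.2. The Cux2 region, 53 bp from an annotated start site of this upper-layer neuron gene, was not called in any library with MLi-2 or Rab5 ASO.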

How the data were processed

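ATAC-seq had been run on 12 libraries, of which the 3 PBS and 3 PFF libraries were compared. The authors trimmed reads with Trim Galore 0.6.7, aligned them with Bowtie2 2.5.1 and called peaks per library with MACS2 2.2.7.1. The deposited peak lists hold a score, a fold enrichment over background, −log10 p-values and −log10 q-values and the summit offset. The study tested read counts, which were not analysed here, so depth enters only through the pileup and background recovered from these columns. The recovered pileup was whole within 0.05 for all peaks.

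Peaks on chromosomes 1 to 19, X and Y were merged at an overlap of 1 bp and annotated with GENCODE vM21 on GRCm38, in Python 3.11.15 (pandas 2.3.3, numpy 2.4.6, scipy 1.17.1, statsmodels 0.14.6, matplotlib 3.10.9). Fold enrichment was ranked within each library. Ranks of regions in all 6 lists, as normal scores, were compared with limma 3.58.1 in R 4.3.3, tested on simulated data, with Benjamini-Hochberg adjustment at 0.05. No filter on low values was used in the main comparison. Library measures were compared by two-sided exact permutation tests. Named regions were the 8 highest gained and lost regions by mean percentile, the 8 largest positive and negative differences among regions where the groups did not overlap, the same among protein-coding promoters, the 5 genes with most gained and most lost regions, and genes the study names. Members and lists were chosen with earlier results of these data known. The series and the study call the 3 libraries of each condition biological replicates, from independent experiments, and the labels tie no library to a pregnancy. Wilson intervals cover counting error only. Alternatives were equal numbers of top peaks, a stricter q-value, other merging rules, other height scales, a height filter, a replicate block and leaving out each library. A few regions that the naming rule picks are not reported here.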

Additional observations from a re-analysis of the deposited data

How the results depend on the processing

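When a peak in 2 or more libraries of one group and in none of the other was enough, there were 9794 gained and 5656 lost regions. Leaving out 1 library at a time gave 3296 to 6160 gained and 1292 to 3621 lost regions, since fewer lists then have to hold or lack a peak. With equal numbers of top peaks, an alternative chosen after seeing the data, lost regions numbered 2341, 2963 and 2803 without PBS replicates 1, 2 and 3. The promoter share of gained regions was 11.0% with equal numbers of top peaks, 8.50% within 500 bp of a start, 9.77% for protein-coding starts only and 13.5% to 14.5% without each library. For lost regions it was 5.06%, 6.52% and 9.39% to 12.2% for the last 3 of these settings. The counts of regions whose heights did not overlap were 9872 to 10775 higher and 10704 to 13479 lower without each library. In none of the 12 alternatives did limma call a region, and 6507 to 9922 regions had an unadjusted p under 0.05. The motif shares and scores under other settings were also chosen after seeing the data. Peaks are called from pileups of a median of 17 fragments, which limits what a missing peak shows.

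In the paired fit, with replicate number as a block, 0 regions passed by limma (8536 unadjusted, smallest adjusted p 0.309). Deviations of same-numbered libraries correlated at 0.0354, 0.0106 and 0.0208 across regions, and those of differently numbered libraries at -0.032 to 0.0113. Among the latter only PBS replicate 2 with PFF replicate 3 was positive (0.0113), just above the same-numbered pair of replicate 2. The study counted each pregnancy as 1 replicate and assigned its cultures to conditions at random. Correlations this small cannot tell whether same-numbered libraries came from 1 pregnancy, and no pairing was used elsewhere.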
